A study of Caenorhabditis elegans with 4 samples.

Results

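Chromosome V carried 633 of the 5942 RNA polymerase II (Pol II) peaks in a ChIP-seq peak list from Caenorhabditis elegans larvae. The 633 peaks are all rows of the list whose chromosome field reads V, so no measured value chose them. They made up 10.7% of the listed peaks on 20.8% of the length that the list spans, counted on each chromosome from base 1 to the end of the last listed peak. Chromosome I alone carried 2178 peaks, 36.7% of the list, and is not among the chromosomes compared below. Of the 3764 peaks on II, III, IV, V and X, 16.8% were on V. The worms were third-stage (L3) hermaphrodites of strain OP26. This strain carries the ed3 mutation of unc-119 on chromosome III and the integrated array wgIs26, which holds the rescuing marker unc-119(+) and the tagged gene mab-5::TY1::EGFP::3xFLAG. They were grown at 20 degrees Celsius and crosslinked with 2% formaldehyde. There were 2 Pol II ChIP libraries and 2 input DNA libraries, 1 of each kind per numbered extraction. Per the labels, Pol II was precipitated with 8WG16, a mouse monoclonal antibody against the C-terminal repeat of the largest Pol II subunit, which ama-1 encodes. The labels' shared protocol text instead describes embryos and anti-GFP serum, and the descriptions of the single samples were followed here.

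All 4 libraries carry the same transgene in the same unc-119 background, and no group without it was analysed here. The authors pooled the libraries into 1 list, so a peak has 1 position and 1 q-value, with no value per library and no error between replicates. Whole animals were used. A peak carried by few cells and one weakly occupied in many cells cannot be told apart. The SDs below describe the spread between windows of the chromosome. They are not replicate errors, no test over samples exists for this list, and no p-value is given. Positions are those of WormBase build WS180, counted from 1. No genome or annotation of that build was used, so peaks are named by position and no sequence is shown.

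Pol II transcribes the protein-coding genes, and its ChIP signal marks promoters where it waits as well as gene bodies that it is reading. Worm chromosomes lack a single point centromere. Autosomes are divided instead into a centre, rich in broadly expressed genes, and a flanking arm on each side, where repeats, silencing histone marks and young gene families are common and which tend to lie near the nuclear envelope. Chromosome V is the longest worm chromosome and is known for its large families of chemosensory receptor genes, most of which act in few neurons. In the RefSeq gene table of a later assembly (WBcel235), of which only names and chromosomes were used, chromosome V held 888 of the 1309 genes with a chemoreceptor family symbol such as str, srh or srw. It also held 167 of 269 nuclear hormone receptor (nhr) genes, 85 of 239 C-type lectin (clec) genes and 87 of 322 F-box genes of the fbxa, fbxb and fbxc families. These are shares of 67.8%, 62.1%, 35.6% and 27.02%, against 25.01% of all protein-coding genes. The F-box share is thus near that of all genes, and II held more F-box genes (107). Which of these genes carried a Pol II peak was not determined.

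The Pol II peaks of chromosome V were sparse for its length. There were 30.4 peaks per Mb, 1 for each 32.9 kb, against 34.2 per Mb on X, 46.7 on II, 52.2 on IV and 65.4 on III. By this count V was the lowest of these 5 chromosomes, but the order of V and X turned when peaks of larger q-value were left out (below). The peaks of V covered 1275 kb, or 6.11% of its stretch, against 6.55% on X, 7.75% on II, 8.38% on IV and 9.15% on III. The shortfall was smaller in covered bases than in peak number. The ratio of V to II was 0.65 in peaks per Mb and 0.79 in covered bases, and that of V to III was 0.46 and 0.67. Against X the ratios were 0.89 and 0.93. Set against gene number, V had 12.7 listed peaks per 100 protein-coding genes of the later assembly, and the others ranged from 20.7 on II to 34.1 on III.

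Along the chromosome, the peaks formed a broad dome between sparse ends. Peaks were counted by their midpoint in windows of 500 kb from base 1. Over the 41 windows that ended before the last peak, chromosome V had 15.2 ± 11.6 peaks per window (mean and SD), with a median of 14, a lowest count of 0 and a highest of 40. The first 9 windows, up to 4.5 Mb, held 4.89 ± 3.48 peaks each, with between 0 and 11. A step followed: the window from 4.5 to 5 Mb had 17 peaks and the next had 8, after which no window fell below 14 until 15 Mb. The 19 windows from 5.5 to 15 Mb held 490 peaks, 77.4% of the chromosome's total on 45.6% of its stretch. The far side ended as abruptly. From 14.5 to 15 Mb there were 14 peaks, and the 9 windows from 15 to 19.5 Mb held 4.56 ± 2.07 peaks each, between 1 and 8. Toward the right tip the counts were higher again, at 8 peaks from 19.5 to 20 Mb, 14 from 20 to 20.5 Mb and 11 in the partial last window.

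**Figure D1:**
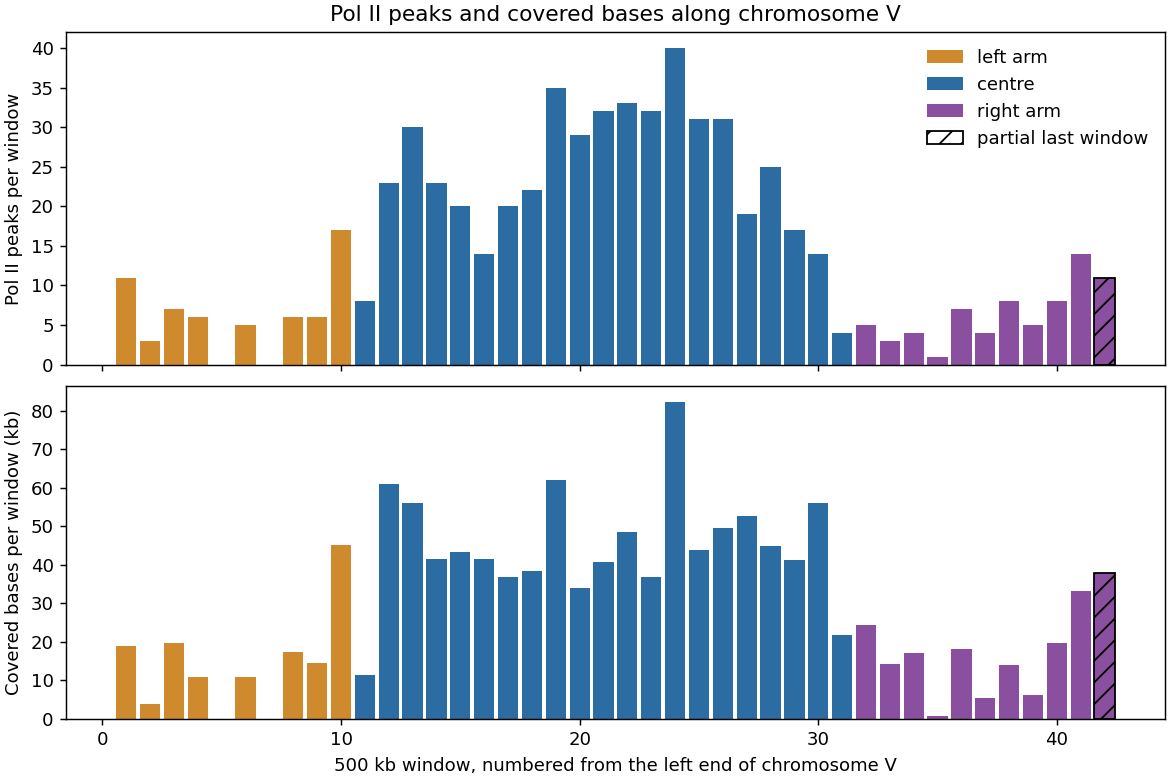
The upper bars give the number of Pol II peaks and the lower bars the bases under peaks (kb) in each 500 kb window of chromosome V, numbered from the left end and coloured by region; the hatched bar is the partial last window. Counts reach 40 in window 24 and are 0 in windows 5 and 7, whereas covered bases stay between 33.9 and 82.2 kb in windows 12 to 30.

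The top of the dome differed in the number of peaks more than in the bases they covered. These segments were chosen after the window values were seen and are given as a description. The 8 windows from 9 to 13 Mb had 32.9 ± 3.36 peaks each, between 29 and 40. The 7 windows from 5.5 to 9 Mb had 21.7 ± 4.79 (14 to 30), and the 4 windows from 13 to 15 Mb had 18.8 ± 4.65 (14 to 25). The counts of the middle segment overlapped those of the left one in the range of 29 to 30 and did not overlap those of the right one. Covered bases lay close together, at 45.5 ± 9.25 kb per window from 5.5 to 9 Mb, 49.6 ± 15.8 kb from 9 to 13 Mb and 48.7 ± 6.75 kb from 13 to 15 Mb. All 3 ranges overlapped. The peaks from 9 to 13 Mb were more numerous but smaller, with a median width of 755 bp and a mean of 1510 bp. From 5.5 to 9 Mb the median was 1255.5 bp and the mean 2095 bp, and from 13 to 15 Mb they were 1117 and 2581 bp. The medians of single windows overlapped between the segments, at 606 to 1111.5 bp in the middle one, 775.5 to 2149 bp in the left one and 647 to 2294.5 bp in the right one.

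The 5 richest windows of chromosome V all lay between 9 and 12 Mb. The window from 11.5 to 12 Mb came first, with 40 peaks over 82.2 kb, of which 4 were 5 kb or wider and 13 had a q-value of 1e-20 or less. The window from 9 to 9.5 Mb followed with 35 peaks over 62.0 kb. After it came the window from 10.5 to 11 Mb with 33 peaks, and those from 10 to 10.5 Mb and from 11 to 11.5 Mb with 32 each. At the other end, no peak had its midpoint between 2 and 2.5 Mb or between 3 and 3.5 Mb. The window from 17 to 17.5 Mb held 1 peak of 607 bp, and those from 0.5 to 1 Mb and from 16 to 16.5 Mb held 3 each. Windows with few peaks were not all equally bare, since the 3 peaks from 16 to 16.5 Mb covered 14.2 kb and the 3 from 0.5 to 1 Mb covered 3.94 kb.

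To compare the centre with each arm, the stretch up to the last peak at 20854713 was divided into its central 50% (5213679 to 15641034), a left arm before it and a right arm after it. The centre held 500 peaks, the left arm 65 and the right arm 68. In peaks per Mb this was 48.0, 12.5 and 13.0, so that the centre was 3.85 times as dense as the left arm and 3.68 times as dense as the right arm. Per 500 kb window, the centre had 23.9 ± 9.26 peaks (21 windows, 4 to 40), the left arm 6.1 ± 5.04 (10 windows, 0 to 17) and the right arm 5.9 ± 3.60 (10 windows, 1 to 14). Of the 21 central windows, 16 exceeded the fullest arm window and 5 did not, so the ranges overlapped. In covered bases 13 of the 21 lay at or below the fullest arm window, of 45.0 kb. The arms resembled each other. The right arm had 1.05 times the peaks per Mb of the left, a difference smaller than the SD between the windows of either arm. Its direction turned with only peaks of q of 1e-05 or less (ratio 0.92) and with a centre of 33.3% of the stretch (0.75). With a centre of 66.7% the direction stayed and the ratio was 1.78. Covered bases gave a contrast in the same direction, with 90.7 kb per Mb in the centre, 28.2 in the left arm and 34.8 in the right arm, or ratios of 3.22 and 2.60.

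In covered bases, V differed from the other chromosomes more in its arms than in its centre. The centre of V, at 90.7 kb per Mb, lay between X at 72.7 and II at 95.2, with IV at 102 and III at 118. The arms of V together had 31.5 kb per Mb, and those of X, II, III and IV had 58.3, 59.8, 64.7 and 65.1. The single arm closest to those of V was the left arm of II, with 36.4 kb and 11.3 peaks per Mb, fewer peaks than the 12.5 of the left arm of V. The right arm of II had 43.2 peaks per Mb. On IV the sparse side was the right arm, with 25.9 peaks per Mb against 52.7 in the left arm, and on X the left arm, with 23.3 against 40.5. The ratio of right to left arm in peaks per Mb was 1.05 on V, 1.17 on III, 1.74 on X, 0.49 on IV and 3.84 on II. The arms of V were thus sparse on both sides, those of III denser on both sides, and those of II, IV and X unequal. The peak density of the centre relative to both arms together was 3.76 on V, 2.43 on II, 1.66 on both III and IV, and 1.15 on X.

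**Figure D2:**
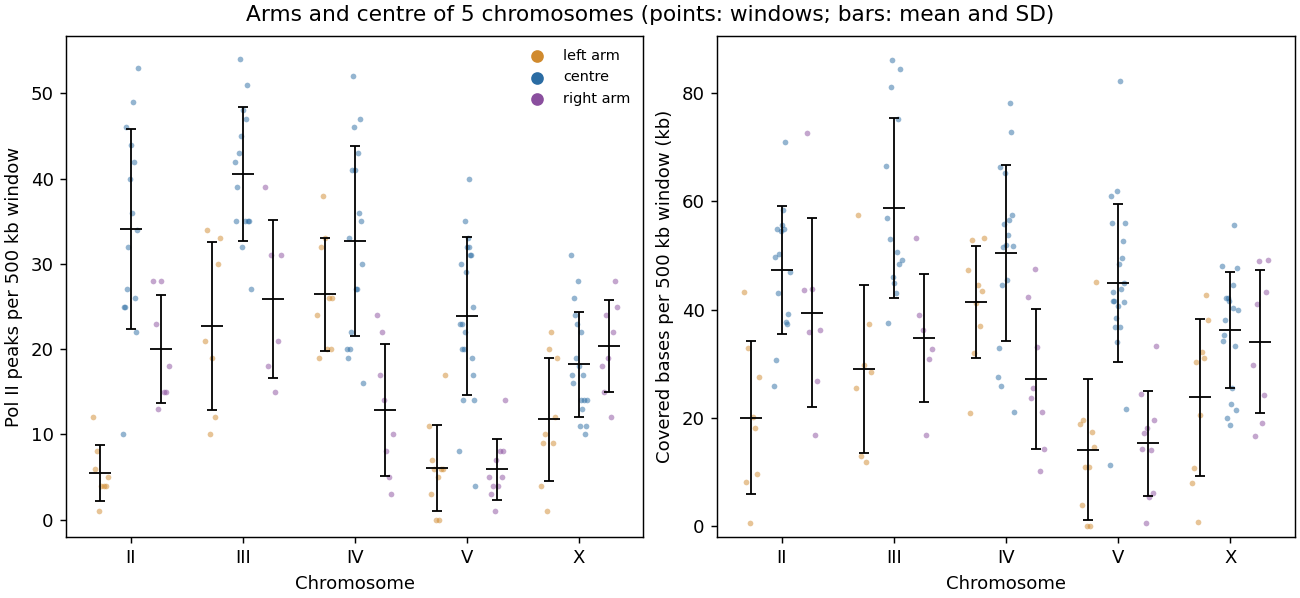
Points are full 500 kb windows and bars the mean and SD over windows, for the left arm, centre and right arm of chromosomes II, III, IV, V and X, in peaks (left panel) and covered kb (right panel). Both arms of V lie low, with means of 6.1 and 5.9 peaks, and the left arm of II lies as low, at 5.5. The mean of the centre of V, 23.9, is above the 18.2 of X and below the 32.6 of IV, 34.1 of II and 40.6 of III.

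The crowding toward the middle can also be read from where the peaks accumulate. Of the peaks of V, 25% lay left of 7263169, or 34.8% of the stretch, and 75% lay left of 12880411, or 61.8%. The middle 50% of the peaks thus occupied 26.9% of the stretch, or 5.62 Mb. The same share took 31.03% on II, 37.8% on III and 39.5% on IV, and on X it took 48.96%. Wider shares set V less apart. The peaks from 10% to 90% took 54.1% of the stretch on V and 56.6% on II. On IV, III and X they took 67.5%, 71.0% and 77.2%. From 5% to 95%, V took 79.7%, more than II (75.1%) and IV (79.2%) and less than X (84.1%) and III (88.7%). The fullest 10 of the 41 windows of V held 51.1% of the peaks counted in full windows, and the emptiest 10 held 4.66%. On II the fullest 8 of 30 windows held 49.5% and the emptiest 8 held 6.04%. Neighbouring windows were alike on V, with a Spearman's rho of 0.78 over 40 neighbouring window pairs, which share an edge and the dome. This rho was 0.77 on II, 0.64 on IV, 0.52 on III and 0.43 on X.

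**Figure D3:**
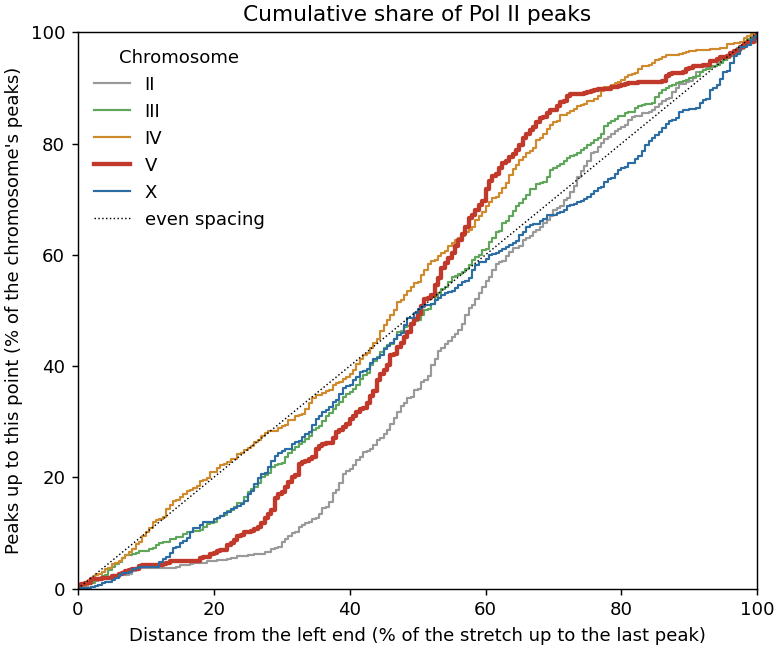
Each line follows 1 chromosome from its left end to the last peak (x axis, % of the stretch) and gives the share of its peaks passed so far (y axis, %); the dotted diagonal is even spacing. The line of V is flat up to about 24.3% of the stretch, where 10% of its peaks are passed, and steepest in the middle. The line of II is flatter still on the left and passes 10% of its peaks at 31.4%.

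Long peak-free stretches took up much of chromosome V. Counting the stretch before the first peak and those between neighbours, 41 stretches were 100 kb or longer. They summed to 8.998 Mb, or 43.1% of the chromosome, against 25.9% on II, 20.4% on X, 19.05% on IV and 7.95% on III. Of these 41, 17 had their midpoint in the left arm, 9 in the centre and 15 in the right arm, and they filled 72.3%, 15.0% and 70.3% of those regions. The left arm of II was as bare, at 70.5%. The other single arms ranged from 11.0% (right arm of III) to 50.2% (right arm of IV). Stretches of 200 kb or more numbered 11 on V, 6 on II, 3 on IV, 3 on X and 0 on III. They filled 52.1% of the left arm of II, more than the 39.3% and 44.7% of the left and right arms of V. On V, the median distance between neighbours was 34.4 kb in the left arm, 26.6 kb in the right arm and 8.93 kb in the centre.

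The longest of these stretches lay in both arms. In the left arm it ran from 2905810 to 3701015 (795 kb), followed there by 1954205 to 2581981 (628 kb), 360261 to 690047 (330 kb) and 690179 to 986167 (296 kb). The right arm had a stretch of 786 kb, from 17118481 to 17904650. Others there reached from 18206691 to 18555060 (348 kb), 16024896 to 16354501 (330 kb), 16819149 to 17117873 (299 kb) and 18860555 to 19157141 (297 kb). The remaining stretch of the 10 longest, from 15082874 to 15511394 (429 kb), counts as centre by the position of its midpoint but adjoins the right arm. Inside the dome, from 5.5 to 15 Mb, the longest was 180 kb, from 7547684 to 7727737. Only listed peaks end a stretch, so occupied sites that missed the q limit of the list may lie inside. The same holds for any of the 95 regions of higher rank that the list lacks (below), whose positions are unknown.

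**Figure D4:**
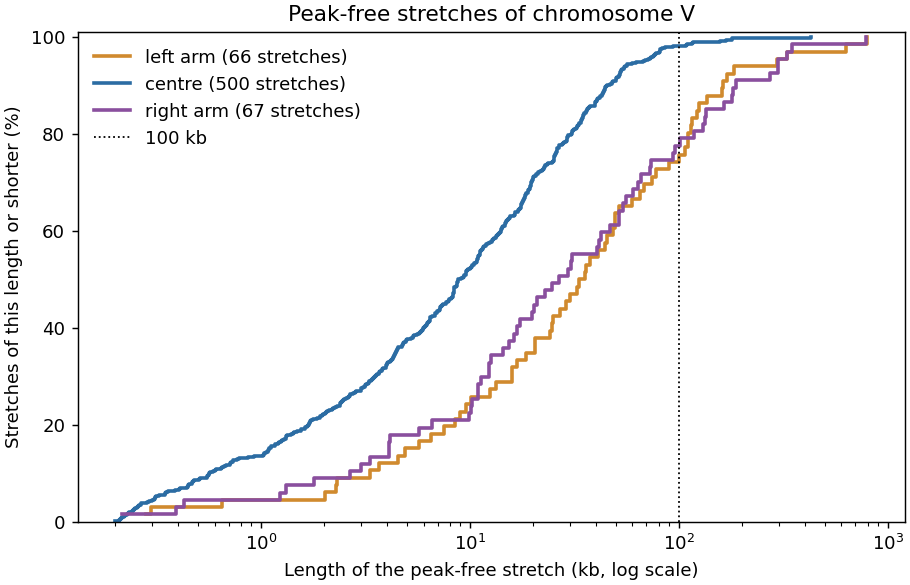
For each region of chromosome V, the line gives the share of peak-free stretches (y axis, %) that are as long as, or shorter than, the length on the x axis (kb, log scale). The centre line lies above both arm lines, with medians of 8.93 kb against 34.4 and 26.6 kb, and the dotted line marks 100 kb.

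Isolated peaks stood between some of the long stretches. On V, 13 of 633 peaks had at least 100 kb without a listed peak on each side, 11 of them in the arms. The same held for 4 of 713 peaks on II, 3 of 912 on IV, 2 of 605 on X and 1 of 901 on III. Such peaks are more likely where peaks are sparse, and the part of density in these counts was not tested. The most remote lay from 17117874 to 17118480, a peak of 607 bp (q = 1.46e-08) that was the only listed peak in 1086 kb. A peak of 565 bp from 2905245 to 2905809 (q = 0.00187) was the only listed peak in 918 kb. Of the 13, 7 were narrower than 1 kb, a share of 53.8% near the 50.9% of all peaks of V. None of the 13 reached a q-value of 1e-20, which 24.96% of the peaks of V did. They included peaks of 2 bp at 18206689 and 7 bp at 15890905, and the widest had 4733 bp, from 2581982 to 2586714 (q = 1.43e-05).

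The arms were not without strong peaks. The list holds no enrichment value, so a small q-value is used as the only measure of strength. Such q-values, of 1e-20 or less, were found for 158 peaks of V, or 24.96%, against 21.8% of all listed peaks and 20.6% of those on V and the 4 compared chromosomes. The shares were 26.2% in the centre (131 of 500), 20.0% in the left arm (13 of 65) and 20.6% in the right arm (14 of 68). Among the other chromosomes the share ran from 17.4% on X to 21.3% on II. Since density and share were both higher in the centre of V, such peaks were 5.04 times as dense there as in the left arm and 4.68 times as dense as in the right arm. By this measure V was above X, with 7.58 such peaks per Mb against 5.94, in place of below it, while II had 9.95, IV 10.5 and III 12.8. These are values of listed peaks only. The 95 regions of higher rank that the list lacks (below) would be of this kind, and their chromosomes are unknown. With them, the contrast of centre and arms and the order of V and X in such peaks could change.

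The 10 listed peaks of V with the smallest q-values were spread over all regions, with 6 in the centre, 2 in the left arm and 2 in the right arm. Regions of higher rank that the list lacks (below) may include others on V. Their widths ranged from 2519 to 14821 bp. Those of the centre lay from 11828841 to 11832166 (q = 2.02e-306), 5838454 to 5847514 (q = 1.73e-300) and 11528987 to 11542024 (q = 1.87e-297). Next came a peak of 12860 bp, from 12294938 to 12307797 (q = 1.98e-285). The others of the centre were at 8414861 to 8429681 (q = 2.04e-247) and 9729492 to 9734479 (q = 3.00e-242). In the left arm, a peak of 9359 bp from 1149683 to 1159041 (q = 7.84e-303) had no neighbour within 78.1 kb, and one of 2519 bp from 1803902 to 1806420 (q = 9.24e-248) had none within 9.01 kb. The next of that arm was at 3977360 to 3983194 (q = 1.48e-195). In the right arm, a peak of 14741 bp from 15651560 to 15666300 (q = 7.49e-236) had no neighbour within 81.0 kb. One of 2934 bp from 20157425 to 20160358 (q = 9.84e-216) had none within 55.9 kb, and the next of that arm began at 20396896 (q = 1.19e-194). Some peaks with very small q-values thus stood alone in sparse surroundings.

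The median peak was wider in the arms of V than in its centre, while the lower quartile was smaller in the arms. Median widths were 1379 bp in the left arm, with quartiles of 409 and 2760 bp, and 1119.5 bp in the right arm (337.5 and 3674 bp). In the centre the median was 930.5 bp (427.75 and 2225 bp), so the ranges between the quartiles overlapped. The median of the whole of V was 959 bp, against 640 bp on III, 763 bp on II, 765 bp on IV and 995 bp on X. On III, IV and X the medians of centre and arms lay close together, at 641 and 631 bp, 767 and 763 bp, and 1009 and 955.5 bp. On II the arms again had the wider peaks, at 983.5 bp against 683 bp.

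Broad peaks, of 5 kb or more, numbered 69 on V, or 10.9%, against 5.54% of all listed peaks. The share was 8.02% over V and the 4 compared chromosomes, and between 6.44% (III) and 9.09% (X) on those 4. Per Mb, V had 3.31 broad peaks, against 4.21 on III, 3.73 on II, 3.61 on IV and 3.11 on X. The broad peaks of V were 50 of the 500 central peaks (10%), 8 of 65 in the left arm (12.3%) and 11 of 68 in the right arm (16.2%). Per Mb they were denser in the centre, at 4.80, than in the left arm (1.53) and the right arm (2.11). Together the broad peaks held 46.1% of all bases under peaks on V, 43.9% in the centre, 44.1% in the left arm and 59.3% in the right arm. On the other 4 chromosomes as wholes, broad peaks held between 35.3% (IV) and 40.6% (X) of those bases. Single arms varied more. In the left arm of II, 23.3% of the peaks were broad and held 73.5% of the bases under peaks, more than in either arm of V. Broad peaks held 46.7% in the left arm of X, 43.9% in the right arm of IV and between 25.9% and 40.6% in the remaining arms. At the narrow end, 35 peaks of V were 50 bp or less, or 5.53%, against 6.08% of all listed peaks and 5.18% of those on V and the 4 compared chromosomes. They were 5 of 65 peaks in the left arm (7.69%), 5 of 68 in the right arm (7.35%) and 25 of 500 in the centre (5%). The mean width was 2014 bp on V, 1915 bp on X, 1661 bp on II, 1605 bp on IV and 1398 bp on III. Covered bases are the number of peaks times this mean, so the ratios of V to these chromosomes lay nearer to 1 in covered bases than in peak number.

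The widest peak of V spanned 23456 bp in the right part of the centre, from 14828205 to 14851660 (q = 3.84e-103), and was followed by 18926 bp near the right tip, from 20396896 to 20415821. The 10 widest peaks had at least 12805 bp. Of them 4 lay in the centre, 2 in the left arm and 4 in the right arm, so the arms, with 133 of the 633 peaks, held 6 of the 10. The 2 of the left arm were neighbours with 3.67 kb between them, from 4498527 to 4512375 (13849 bp, q = 3.84e-16) and from 4516041 to 4528845 (12805 bp, q = 4.42e-60). They belong to the window with 17 peaks at the inner edge of that arm. In the right arm, a peak of 14168 bp from 20660248 to 20674415 had a q-value of only 5.51e-12, and one of 12858 bp from 16775843 to 16788700 had 1.88e-106. The widest and the strongest listed peaks were partly the same, as 4 peaks were in both groups of 10: those starting at 8414861, 11528987, 12294938 and 15651560.

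Wider peaks of V had smaller q-values. Over its 633 peaks, width and −log10 q had a Spearman's rho of 0.66. It was 0.67 in the centre, 0.60 in the left arm and 0.73 in the right arm, and between 0.64 and 0.67 on II, III, IV and X. The peaks share the 4 pooled libraries, and the values are a description. At like width, between 500 bp and 5 kb, central peaks had the larger median −log10 q. From 2 to 5 kb it was 20.6 in the centre (86 peaks), 15.7 in the left arm (15) and 12.8 in the right arm (13). From 1 to 2 kb it was 10.8, 5.74 and 8.84 (97, 20 and 11 peaks), and from 500 bp to 1 kb it was 5.98, 4.97 and 3.57 (118, 4 and 12 peaks). From 200 to 500 bp the left arm was highest, at 3.95 (7 peaks) against 3.82 in the centre (83) and 3.08 in the right arm (8). From 50 to 200 bp the centre was highest, at 2.99 (41 peaks) against 2.35 and 2.58 (6 and 8). Among broad peaks the medians were 48.9, 45.6 and 54.5, with the right arm highest, and among those of 50 bp or less the left arm had the largest, at 4.44 from 5 peaks.

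**Figure D5:**
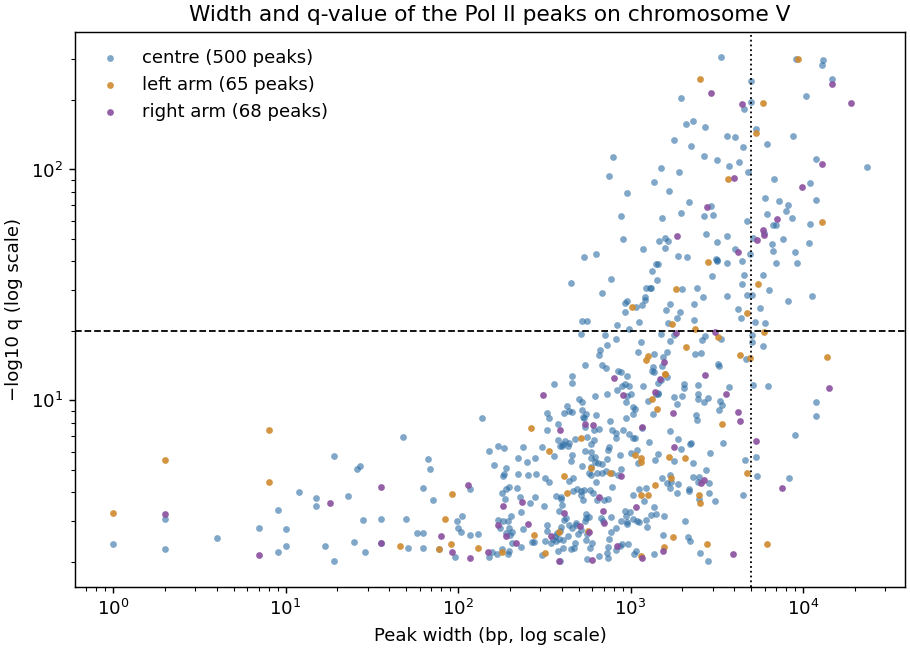
Each point is 1 of the 633 peaks of chromosome V, with its width (x axis, bp, log scale) and −log10 q (y axis, log scale), coloured by region. The dotted line marks 5 kb and the dashed line a q-value of 1e-20; peaks of both arms (13 and 14) lie above the dashed line beside 131 of the centre.

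Close neighbours were mostly a feature of the dome. On V, 133 peaks (21.0%) had another peak within 1 kb, of which 122 lay in the centre (24.4% of its peaks), 5 in the left arm (7.69%) and 6 in the right arm (8.82%). Within 5 kb the shares were 60.0%, 26.2% and 32.4%. More closely set peaks are found where peaks are dense, and the part of density in these shares was not tested. Among the other centres, that of X, with 36.5 peaks per Mb, had 21.1% of its peaks within 1 kb of another, and those of II, IV and III, with 66.1, 65.1 and 81.6 peaks per Mb, had 29.3%, 34.3% and 35.2%. The centre of V, at 48.0 peaks per Mb and 24.4%, fell between them on both counts. Peaks of V with no neighbour within 20 kb were 52 of 500 in the centre (10.4%), 28 of 65 in the left arm (43.1%) and 24 of 68 in the right arm (35.3%). The left arm of II was alike, with 44.2% such peaks and 11.6% within 1 kb of another. Such isolated peaks were 29.1% in the left arm of X and between 7.39% and 16.8% in the remaining arms.

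Runs of 3 or more peaks with at most 1 kb between neighbours numbered 9 on V, 8 in the centre, 1 in the left arm and 0 in the right arm. They held 33 peaks, or 5.21% of the chromosome's, against 2.81% on X, 8.84% on II, 10.9% on IV and 15.1% on III. The run with the most peaks had 6 over 14.9 kb, from 6001887 to 6016809, with 87.3% of its span under peaks. It was followed by 5 peaks from 6741160 to 6749268 and 4 from 9150482 to 9155338, which covered 74.9% and 76.5% of their spans. The next, of 3 peaks each, reached from 14783398 to 14793888 and from 6509400 to 6517726. These had 93.8% and 86.3% of their spans under peaks. Whether the list divides longer occupied regions there was not tested.

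With neighbours up to 5 kb apart, 47 runs of 3 or more were found, 43 of them in the centre, with 173 peaks in all (27.3%). The largest had 9 peaks over 24.95 kb, from 6001887 to 6026836, and contains the run of 6 above. The second had 8 peaks over 14.9 kb, from 9150482 to 9165398, and only 37.2% of it was under peaks. Runs of 6 peaks reached from 10551393 to 10567031 and from 11067622 to 11083033, with 33.7% and 49.8% under peaks. In the run of 9 near 6 Mb 63.3% was under peaks. The fifth, of 5 peaks from 11528210 to 11551772, is built around a peak of 13038 bp that is among the 10 with the smallest q-values. In the arms, 2 such runs were found on each side, of at most 4 peaks.

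The list does not begin at the highest rank. In a q-value of this kind, a p-value is scaled by the region's rank, and among 300 first ranks tried only 96 made any neighbouring p-values equal (686 pairs, to within a relative 1e-11). The 95 regions of higher rank were not analysed here, and their chromosomes and widths are unknown. If all of them lay on V, it would have 34.9 peaks per Mb, still below II, III and IV but above X. If all lay in its arms, the centre would be 2.19 times as dense as the arms in place of 3.76 times.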

How the data were processed

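Pol II ChIP-seq and input libraries of L3 larvae (2 of each) were represented by 1 deposited list of combined peaks. Peaks were called with PeakSeq, which compares precipitated with input reads, per the file's source field, with positions on WS180, per the file headers. How reads were aligned and filtered, the PeakSeq version and how replicates were combined were not given in the sources used here. For each peak the authors deposited 1 q-value, which is a p-value corrected for testing many regions. It was the same in both fields that hold it for all 5942 peaks, with a maximum of 0.0099, and neighbouring peaks were at least 200 bp apart. A wide occupied region with a dip can thus be listed as several peaks. No counts are given, so depth is unknown.

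Widths, midpoints, −log10 q, window counts, covered bases, gaps and runs were computed with pandas 2.3.3, numpy 2.4.6, scipy 1.17.1 and matplotlib 3.10.9 under Python 3.11.15, and checked on a made-up chromosome with known answers. Only full 500 kb windows entered means and SDs, each assigned to centre or arm by its midpoint. Named were, on V, the 10 peaks of smallest q, the 10 widest, the 3 of smallest q per region, the 10 longest peak-free stretches, the 5 longest runs at each limit (by number of peaks, then by span) and the 5 richest and poorest windows. Isolated peaks, segments of the dome, gene families and the ranks were added later. Members, lists and comparisons were chosen with earlier results of these data known. No test was made, because the list gives no value per library and its windows and peaks are not replicates.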

Additional observations from a re-analysis of the deposited data

How the results depend on the processing

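Of 142 recomputed values of 25 results, 123 kept their direction and moved by less than the spread used for them, 14 moved by more and 5 changed direction. The spread was 1 SD between windows for densities and ratios, the 95% Wilson interval for shares and 1.5-fold for counts. For the correlation of width and −log10 q it was the SD over the centre, left arm and right arm. The SD between windows is wide, so large shifts also pass and this count is no measure of stability. The mean over windows of V fell from 30.3 to 7.61 peaks per Mb with only q of 1e-20 or less. It still counted among the 123, as the SD was 23.1. Some alternatives changed almost nothing: centre over left arm in peaks was 3.85 also when the stretch began at the first peak. The Wilson interval treats peaks or stretches of 1 list as independent, which they need not be, and served only as a yardstick. The centre of V was denser than either arm under all alternatives run for single arms, by 2.39 to 5.04 times in peaks and 2.00 to 4.61 times in covered bases, and V stayed below II, III and IV (ratios of 0.45 to 0.82). With only peaks of q of 1e-20 or less, V exceeded X (1.28 in peaks, 1.09 in covered bases), the centre had 4.61 times the covered bases of the left arm, and 35.8% of the long peak-free stretches, not 78.0%, lay in the arms. With q of 1e-05 or less, the right arm had 0.92 times the peaks per Mb of the left, and peaks of 5 kb or more were 15.9% in the centre and 23.9% in the arms. With a centre of 33.3% of the stretch, the right arm had 0.75 times the peaks of the left and the centre 2.09 times the covered bases of the left arm. With a centre of 66.7%, the right arm had 1.78 times the peaks and 2.10 times the covered bases of the left. Which arm is denser in peaks therefore depends on these choices. In covered bases the ratio of right to left arm ran from 1.01 to 2.10 over the 8 alternatives and did not turn. The cause of these shifts was not tested. Adding all regions of higher rank, an alternative chosen after seeing the data, gave 2.19 for centre over arms and 1.02 for V over X. Both are ratios of peaks per Mb at any q-value, and peaks of q of 1e-20 or less were not recomputed this way. Limits of 50 and 200 kb gave 94 and 11 peak-free stretches, with 53.2% and 90.9% in the arms. Runs numbered 16 at 2 kb and 47 at 5 kb. No paired analysis was possible because all libraries were merged into 1 list, which also means that leaving out a replicate could not be tried. Regions below the q limit cannot be judged, as depth is unknown.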
